A study of Mus musculus with 13 samples.

Results

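Mouse chromosomes 18 and 19 were examined for read depth, copy number and the balance of reads between the reference and the alternative base, in leukaemias driven by N-Myc, a Myc-family regulator of transcription. All variant and copy number rows on these chromosomes were taken, 55878 of the 1076367 rows of 7 whole-genome libraries. They comprise 8410 SNV rows (single-base variants), 27239 INDEL rows (short insertions and deletions) and 34 copy number rows on the first of these chromosomes, and 2753, 17399 and 43 on the second. The chromosomes were chosen by measured values of these same data, namely the alternative read shares of T-MPAL on both and the copy number of chromosome 19 in B-ALL. Those values are therefore given as a description, with no test.

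Each library was made from GFP+ bone marrow cells of C57BL/6 mice aged 8 to 10 weeks. The sorted populations were B220+ cells for B-ALL, CD3+ cells for T-ALL, Mac1+Gr1+ cells for AML, cells without B220, CD3, Mac1 and Gr1 for AUL, cells with Mac1/Gr1 but no B220 or CD3/4/8 for M-MPAL, cells with CD3/4/8 but no Mac1/Gr1 or B220 for T-MPAL, and GFP+ cells of an empty control. The leukaemias carried retroviral N-Myc, and the labels describe the control only as empty and GFP+. The first 4 came from 2000000 cells each and the other 3 from 1000000, so that this step and the group cannot be told apart when those 4 are set beside the control. With 1 library per group there was no replicate, and no test between groups was made. The labels name no matched normal DNA, and do not say whether both MPAL fractions came from the same mouse.

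A diploid cell carries a maternal and a paternal copy of each autosome. A variant on one of them is found in about as many reads as the reference base, and a variant on both, or on the sole remaining copy, in nearly all reads. Loss of heterozygosity is the state in which one parental copy is no longer represented; it can come with a lower copy number or without one. Such changes are studied in leukaemia because they can leave a cell with a single version of a tumour suppressor gene.

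Short stretches of reference sequence show where a pair of chromosome 19 variants lay that bear on this. Both were read from the RefSeq promoter table (build GRCm38.p6, plus strand), whose base matched the deposited reference base at all 5 of the SNVs of that chromosome lying in one of its 1044 promoter windows. The first is the upstream region of Kif20b, a mitotic kinesin, at chr19:34922185-34922245. The capital marks the position of G34922215T, 143 bases before the RefSeq start of the gene, which was called in B-ALL (8 of 17 reads) and AML (12 of 27 reads) only. The second is at Rbp4, the plasma carrier of retinol, at chr19:38124978-38125007. The capital marks the base deleted in T-MPAL in 8 of 17 reads.
Kif20b: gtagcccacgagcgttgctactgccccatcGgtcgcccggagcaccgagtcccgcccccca
Rbp4: ccgtcagccttgccgtCccacgtcgcctat
The Kif20b site thus had both alleles in B-ALL inside a region that the deposited table gives at 1 copy. The Rbp4 deletion stood beside the reference allele in T-MPAL, in which 12 of 20 SNVs of the chromosome had an alternative read share of 0.9 or more and 8 of these had no reference read.

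T-MPAL had nearly all reads alternative at most of its SNVs on both chromosomes. The measure is the alternative read share, the alternative reads over all reads at a site. It was taken over restricted SNVs, those called in at most 3 of the 7 libraries with a quality score of at least 100 and at least 10 reads, outside segmental duplications. On chromosome 18, 31 of 39 restricted SNVs of T-MPAL (79.5%, exact 95% interval 63.5% to 90.7%) had a share of 0.9 or more, and the median share was 1.00. On chromosome 19 it was 12 of 20 (60.0%, interval 36.1% to 80.9%), with a median of 0.96. Over chromosomes 1 to 19 the share of such SNVs in T-MPAL was 7.56%, and on the single chromosomes from 1 to 17 it ran from 0% to 15.6%. Intervals here cover counting error only, since reads are not independent molecules and neighbouring sites share a haplotype.

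M-MPAL, the other fraction, had 0 of 76 such SNVs on chromosome 18 (a count of 0 allows up to 4.74% by the exact interval) and 3 of 37 on chromosome 19, with median shares of 0.47 and 0.46. Its background over chromosomes 1 to 19 was 3.83%. AUL had 7 of 140 and 4 of 89 (background 2.24%), and T-ALL 5 of 70 and 0 of 41 (background 7.13%). B-ALL had 4 of 28 and 0 of 12 (background 6.58%). AML had 6 of 34 and 6 of 18 (background 7.45%), and the empty control 5 of 17 and 5 of 12 (background 14.8%). The values of AML (17.6%) and the control (29.4%) on chromosome 18 lay inside their own ranges over chromosomes 1 to 17, which reached 25.7% and 33.3%. On chromosome 19 they were 33.3% and 41.7%, above those ranges but on 18 and 12 sites, and their intervals (13.3% to 59.0% and 15.2% to 72.3%) overlapped that of T-MPAL.

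**Figure D1:**
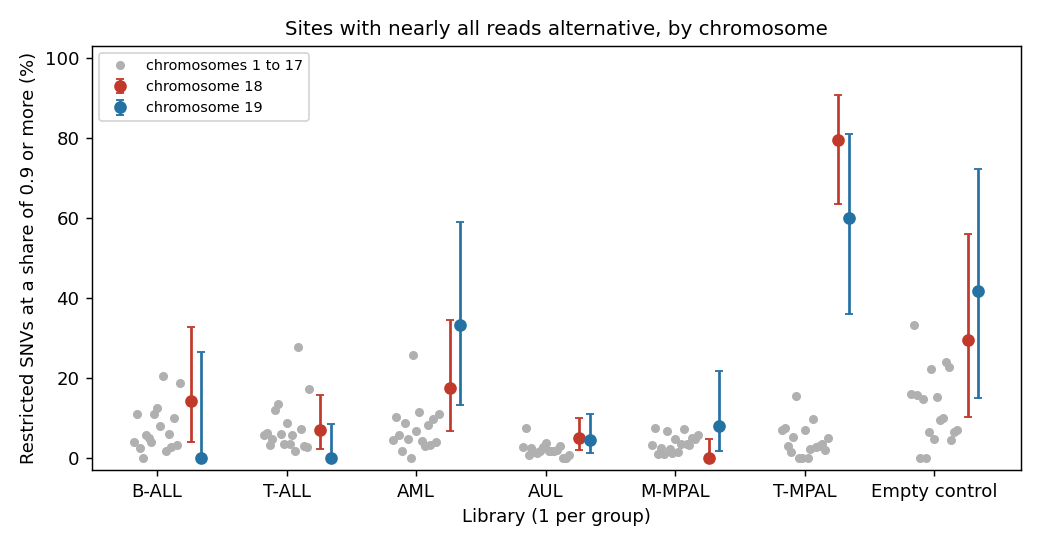
The percent of restricted SNVs with an alternative read share of 0.9 or more is plotted for each autosome (y axis) in each library (x axis); grey points are chromosomes 1 to 17, and red and blue points are chromosomes 18 and 19 with exact 95% intervals. T-MPAL stands at 79.5% and 60.0% on the coloured chromosomes, and AML and the empty control have wide intervals on chromosome 19.

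The sites at 0.9 or more were described by their dbSNP listing and by the other libraries that carried them, with no test. Of the 43 in T-MPAL, 5 were listed in dbSNP, 17 were called in no other library and 24 were also called in M-MPAL. M-MPAL showed the same variant at a share below 0.9 in 22 of the 43, which are among these 24. A library other than T-MPAL showed it at 0.9 or more in 7. The neighbouring SNVs at chr19:60098343 and chr19:60098344 are among the latter, both at 0.92 in M-MPAL. Of the 16 SNVs of T-MPAL below 0.9, 4 were listed in dbSNP and 12 were called in no other library. In the empty control 9 of 10 were listed in dbSNP and all 10 were at 0.9 or more in another library too. The listed sites were 4 of 4 in B-ALL, 5 of 5 in T-ALL, 7 of 11 in AUL and 2 of 3 in M-MPAL. No such listing is given for chromosomes 1 to 17. In AML 9 of 12 were listed in dbSNP. They include a run of 4 SNVs on chromosome 19 between positions 50032559 and 50032646, at which every AML read was alternative (15 of 15, 18 of 18, 14 of 14 and 17 of 17), and 3 of which were called in the control with every read alternative as well. Of the 43 sites of T-MPAL, 34 were intergenic and 9 intronic, and 24 lay in annotated repeats, 2 of these in simple repeats or low-complexity sequence. Of its 16 SNVs below 0.9, 6 were intergenic and 10 intronic. Annotated repeats held 9 of those 16, 5 of them simple or low-complexity. These counts have no value for chromosomes 1 to 17 beside them.

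The quality minimum sets these percentages. With a minimum of 20 in place of 100, the share in T-MPAL was 37.3% of 83 SNVs on chromosome 18 and 21.8% of 55 on chromosome 19, against 2.09% on chromosomes 1 to 17. None of the 44 and 35 SNVs that this added had a share of 0.9 or more, and their median shares were 0.29 and 0.27. SNVs of the same quality range added on chromosomes 1 to 17 of T-MPAL had a median share of 0.29.

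The high shares were spread along both chromosomes, with sections of chromosome 19 in which they were few. On chromosome 18 they were found from position 3460433 to 87690650, in 9 of 9 sections of 10 Mb that held a restricted SNV. On chromosome 19 they ran from 3681557 to 60098344 and were found in 6 of 7 sections, though at only 1 of 2 SNVs from 10 to 20 Mb and 2 of 5 from 20 to 30 Mb (median share 0.46). The section from 50 to 60 Mb held a single SNV, in Vti1a, a vesicle SNARE protein, at 7 of 18 reads. The last section held only the neighbouring pair at 60098343 and 60098344, which was at 0.92 in M-MPAL too. Before that pair, the last SNV at 0.9 or more on chromosome 19 was at 49506782. The first such SNV on chromosome 18, at 3460433, was also at 0.9 or more in B-ALL (25 of 25 reads) and T-ALL (22 of 23 reads). Of the sites at 0.9 or more, 25 of 31 and 8 of 12 had no reference read at all. Over all their reads, 7 of 671 (1.04%) and 4 of 272 (1.47%) carried another base than the alternative. The members nearest the threshold had 10 of 11 reads on the inner side on each chromosome, and 15 of 18 (chromosome 18) and 49 of 81 (chromosome 19) on the outer side.

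**Figure D2:**
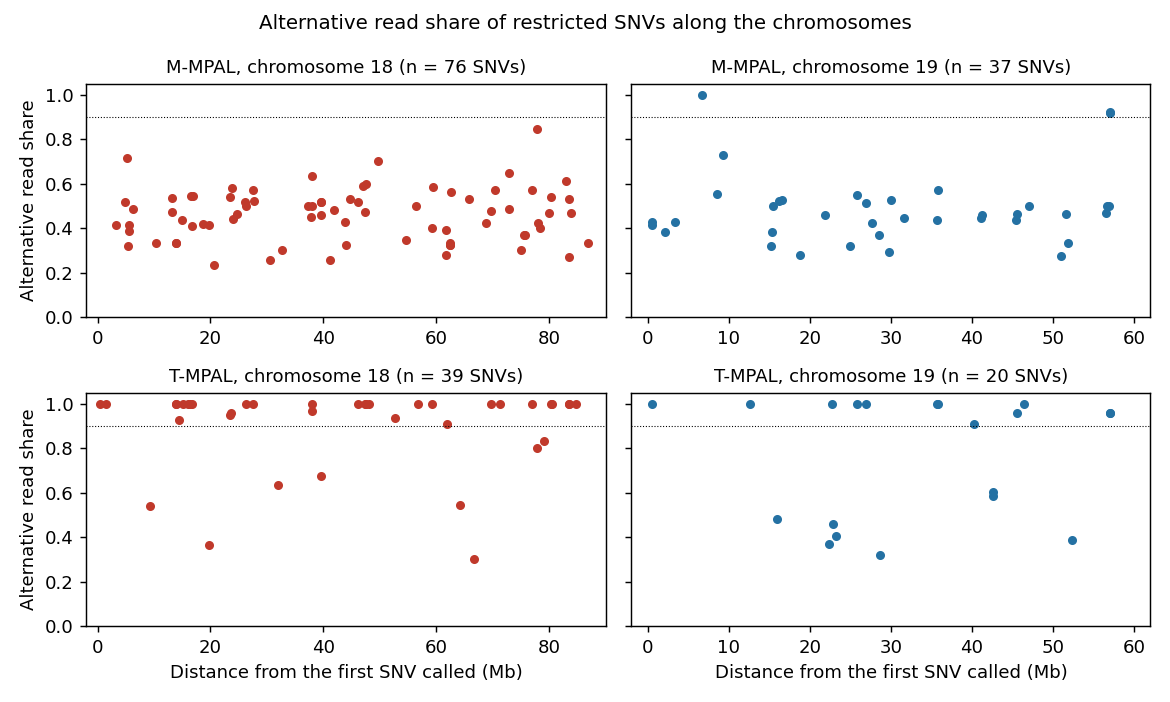
The alternative read share of each restricted SNV (y axis, 0 to 1) is plotted against its distance from the first SNV called on the chromosome (x axis, Mb), for M-MPAL (top) and T-MPAL (bottom). Points of M-MPAL lie around 0.47 on chromosome 18 and 0.46 on chromosome 19, while those of T-MPAL lie mostly on the dotted line at 0.9 or above, with 8 exceptions on each chromosome.

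The 8 exceptions on chromosome 18 were spread along it. They include an intronic SNV of Ankrd29 at position 12305245 (14 of 26 reads), of Nol4 at 22712029 (8 of 22 reads), of Gnal, a G protein alpha subunit, at 67186640 (6 of 11 reads) and of Tcf4, an E-protein transcription factor of lymphoid and dendritic cells, at 69635711 (7 of 23 reads). On chromosome 19 the exceptions include SNVs at 19090873 in Rorb, an orphan nuclear receptor (15 of 31 reads), and at 26297964 between genes (13 of 32 reads). A pair in an intron of Fbxw4, an F-box protein, had 45 of 77 and 49 of 81 reads, beside a median depth of 24 reads over the restricted SNVs of the chromosome, in a 2 kb stretch that the M-MPAL table gives at 9 copies. Of the 16 exceptions on both chromosomes, 12 were called in T-MPAL alone.

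SNVs found only in the MPAL fractions gave a direct comparison of the same positions. These are SNVs at a share of 0.2 to 0.8 in M-MPAL and with no call outside M-MPAL and T-MPAL. Of those also called in T-MPAL, 16 of 18 on chromosomes 18 and 19 had a share of 0.9 or more there, against 1 of 490 on chromosomes 1 to 17 and a background of 3.35% over chromosomes 1 to 19. The median share of these SNVs was 0.52 in M-MPAL and 1.00 in T-MPAL on chromosomes 18 and 19, and 0.49 and 0.48 on chromosomes 1 to 17. Because the chromosomes were chosen by these shares, nothing is supported by this count beyond its description.

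Examples show the reads behind it. At an SNV of Lrp5, a Wnt co-receptor, at chr19:3681557 (intron) M-MPAL had 15 of 36 alternative reads and T-MPAL 35 of 35. In Uhrf2, a ubiquitin ligase that binds modified cytosine, at chr19:30068869 (intron) they had 19 of 37 and 24 of 24. In Slc1a1, a glutamate transporter, at chr19:28897884 (intron) they had 11 of 20 and 14 of 14. On chromosome 18 the intergenic SNV at 86540759 had 18 of 34 reads in M-MPAL and 33 of 33 in T-MPAL, and that at 83419533 had 14 of 26 and 21 of 21. In each of these 5 sites no reference read was seen in T-MPAL, while M-MPAL had both bases.

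**Figure D3:**
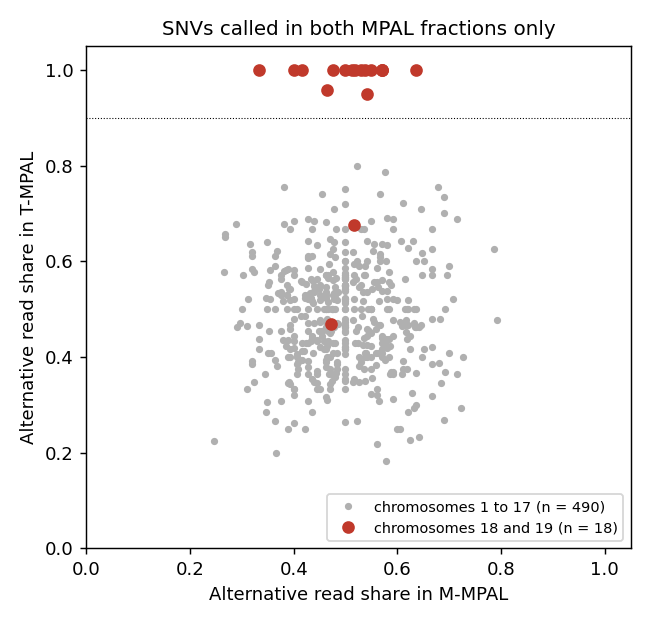
Each point is an SNV called in both MPAL fractions and in no other library, with its alternative read share in M-MPAL (x axis) and in T-MPAL (y axis). Of the 18 red points (chromosomes 18 and 19), 16 lie at 0.9 or more in T-MPAL, and the 490 grey points (chromosomes 1 to 17) form a cloud around the middle.

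Many M-MPAL SNVs had no counterpart in T-MPAL. Of 101 on chromosomes 18 and 19, 83 had no call there (82.2%, exact 95% interval 73.3% to 89.1%), with 57 of 70 on chromosome 18 and 26 of 31 on chromosome 19. On chromosomes 1 to 17 it was 1134 of 1624 (69.8%), from 53.9% to 78.8% on single chromosomes, and over chromosomes 1 to 19 it was 70.6%. Both figures include variants that one fraction may have gained alone. In the opposite direction few T-MPAL SNVs at a share of 0.2 to 0.8 were available on chromosomes 18 and 19, 14 in all, against 1125 on chromosomes 1 to 17. Of these, 12 of the 14 and 626 of the 1125 had no call in M-MPAL.

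INDELs of T-MPAL, called from the same reads, had the same direction with a smaller difference. A share of 0.9 or more was found at 56 of 148 restricted INDELs on chromosome 18 (37.8%) and at 36 of 101 on chromosome 19 (35.6%), against 13.0% on chromosomes 1 to 17 and 14.4% over chromosomes 1 to 19. Of the 92 such INDELs, 76 lay in simple repeats or low-complexity sequence, where INDEL calls are least certain. Some positions are among the 92 under different alternative alleles with the same reads, such as 31 of 31 for each at chr19:20410271. Alternative reads are not split between alleles there. Such a position is thus counted more than once, and no single allele of it is shown at 0.9. In M-MPAL 6.73% and 10.2% of restricted INDELs had such a share. Outside repeats, a deletion of 3 bases in an intron of Pacs1, a trafficking adaptor, at chr19:5270249 had 16 of 30 reads in M-MPAL and 35 of 36 in T-MPAL. An insertion of 2 bases between genes at chr19:11692404 had 16 of 32 and 24 of 26. Other INDELs outside repeats went differently. Those at chr18:52754919 (24 of 24 reads) and chr18:84599470 (27 of 27 reads) were called in T-MPAL alone. That at chr18:82167029 had 12 of 12 reads in T-MPAL and 33 of 33 in the empty control.

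The depth of T-MPAL lay within the range of the other libraries on chromosome 19, and at or slightly below its lower end on chromosome 18. Depth was taken at SNVs called in all 7 libraries, 649 on chromosome 18 and 132 on chromosome 19, and divided by the median over chromosomes 1 to 17. For T-MPAL the median depth was 39 reads on chromosome 18 (relative depth 0.812, 95% interval 0.771 to 0.833) and 19.5 reads on chromosome 19 (0.406, interval 0.354 to 0.458). The other libraries had 0.812 to 0.837 on chromosome 18, and those other than B-ALL had 0.396 to 0.420 on chromosome 19. The ratio of T-MPAL depth to the median of the other 6 libraries at each site, scaled likewise, was 0.97 (interval 0.95 to 1.00) and 1.02 (0.97 to 1.06). On chromosome 18, 474 of the 649 sites lie within a single window of 1 Mb at its start and 475 in segmental duplications. Outside segmental duplications the site ratio of T-MPAL was 0.93 (interval 0.88 to 1.01, 174 sites) there, beside 0.93 (interval 0.88 to 0.98) in M-MPAL. The relative depth of T-MPAL at these sites was 0.60, against 0.625 to 0.704 in the other 6 libraries.

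The deposited copy number table of T-MPAL had no large call on either chromosome. It held 4 losses on chromosome 18, of 28 kb in all, and none on chromosome 19. A pair of adjacent losses to 1 copy, 3 kb together, lay in Dcc, a netrin receptor and candidate tumour suppressor, at chr18:71499001-71502000. A loss of 13 kb lay in Fam69c and one of 12 kb between genes. Gains to 3 copies lay in Cep192, a centrosomal protein, over 4 kb.

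B-ALL differed from the others in the depth of chromosome 19. The median depth there was 12 reads in B-ALL, against 18.5 to 22 reads in the other 6 libraries. The relative depth was 0.245 in B-ALL (95% interval 0.224 to 0.286), below the intervals of the others. The site ratio to the median of the other libraries was 0.65 (interval 0.61 to 0.68), and 123 of the 132 sites lay below 1. In the other libraries the site ratio was 1.01 to 1.08 on this chromosome. Since B-ALL enters the reference median of the others, a low depth in B-ALL raises their ratio by construction. On chromosome 18 the site ratio of B-ALL was 1.03. At the 190 INDELs of chromosome 19 called in all libraries it was 0.67 (interval 0.65 to 0.71). A site had to be called in B-ALL to be counted, so sites at which B-ALL had too few reads for a call are missing from all these values.

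**Figure D4:**
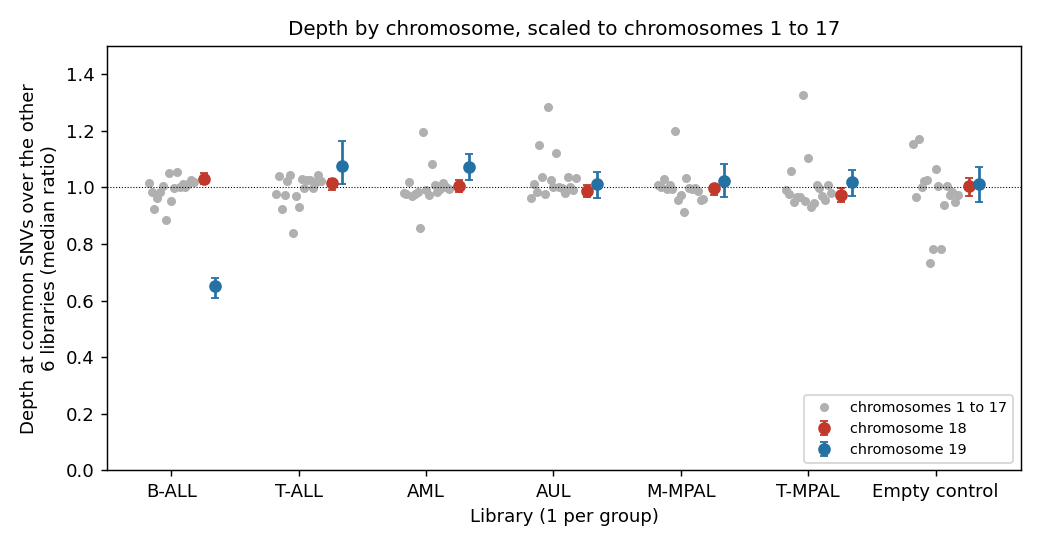
The median ratio of depth at SNVs called in all 7 libraries to the other 6 libraries (y axis) is plotted for each autosome by library (x axis); grey points are chromosomes 1 to 17, and red and blue points chromosomes 18 and 19 with 95% order-statistic intervals. Chromosome 19 of B-ALL stands at 0.65, and both coloured points of T-MPAL lie close to 1.

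The lower depth ran along the chromosome. In sections of 10 Mb, over SNVs and INDELs, the B-ALL ratio was 0.61, 0.69, 0.74, 0.65, 0.62 and 0.65 up to 60 Mb, over 22 to 75 sites a section. It was 0.81 in the last section, on 21 sites. In the other 6 libraries the sections ran from 0.82 to 1.18, the lowest being the last section of the empty control. In that section the interquartile ranges overlapped, from 0.60 to 0.96 in B-ALL and from 0.75 to 0.96 in the control.

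**Figure D5:**
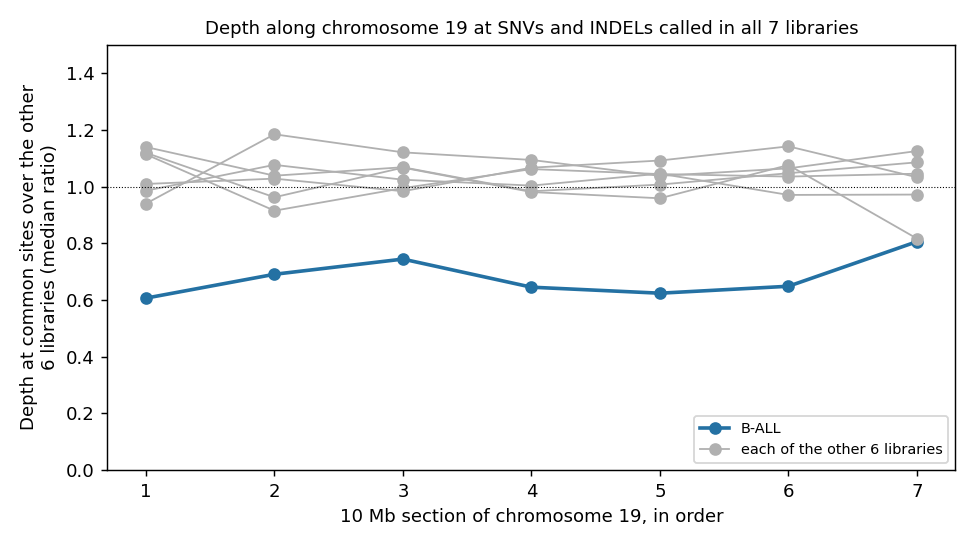
The median depth ratio to the other 6 libraries at SNVs and INDELs called in all 7 (y axis) is plotted for each 10 Mb section of chromosome 19 in order (x axis), with B-ALL in blue and each other library in grey. B-ALL lies from 0.61 to 0.74 in the first 6 sections, below every grey line, and meets the control in the last.

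The deposited copy number calls of B-ALL cover the same stretch. There were 9 losses to 1 copy, from position 3159001 to 61267000, covering 57.7 of the 58.1 Mb between those ends; the largest was 15.2 Mb. These calls and the depth above come from the same reads. Between them stood 4 gains of 1 to 12 kb, of which those at 8251001 and in Ifit1bl1, an interferon-induced gene, were also called in the other 4 libraries with rows here. T-ALL had a loss of 72 kb between genes on chromosome 19. Copy number rows on these chromosomes were analysed for B-ALL, T-ALL, M-MPAL, T-MPAL and the empty control. The copy number tables of AML and AUL end before these chromosomes, which says nothing about their copies. For copy number, depth is thus the sole measure of AML and AUL here.

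The losses of B-ALL hold 693 of the 705 protein-coding RefSeq genes of chromosome 19 whole (98.3%). All 36 list genes on the chromosome lay in one of these calls, which is what a loss of nearly the whole chromosome gives for any list. The tumour suppressors include Fas, a death receptor, Men1, the menin scaffold of histone methyltransferases, and Sufu, an inhibitor of Hedgehog signalling. The 9 transcription and chromatin genes include Nfkb2 and Rela, subunits of NF-kappaB, Tlx1, a homeobox gene, and Ldb1, an adaptor of haematopoietic transcription complexes. The 8 signalling genes include Jak2, a cytokine receptor kinase, Blnk, the adaptor of the B-cell receptor, and Chuk, a kinase of the NF-kappaB pathway. The 6 surface and lymphoid genes include Cd5, Ms4a1, which encodes CD20, and Dntt, which adds untemplated bases to rearranging antigen receptor genes. Mxi1, an antagonist of Myc, and 8 DNA repair and replication genes, among them Fen1 and Smc3, were also included. None of these 36 genes had an exonic or splicing variant called in at most 3 libraries. With at least 10 reads, the whole chromosome held only 12 such calls over the 7 libraries, so few would fall in any list. On chromosome 18, 1 of the 32 list genes, Dcc, lay in a copy number call, and no share over all genes of that chromosome is given beside it.

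In B-ALL no restricted SNV on chromosome 19 reached a share of 0.9, but this depended on how many libraries could share a variant. All 12 restricted SNVs lay inside a loss call and had shares of 0.35 to 0.73 (median 0.56), and 0 of 12 reached 0.9, which allows up to 26.5% by the exact interval. With variants called in up to 6 libraries it was 9 of 36 (25%, interval 12.1% to 42.2%), beside 60.5% in T-MPAL. No value for chromosomes 1 to 17 is given at that setting, so neither percentage stands beside its background. With at least 5 reads the count in B-ALL was 1 of 13. The median depth of the 12 restricted SNVs was 17 reads, and 10 of them lay in annotated repeats. A pair in an intronic repeat of Cyp2c53-ps, at 39257593 and 39257600, had 37 and 39 reads in B-ALL and 76 and 73 in the empty control. Of 34 restricted INDELs, 7 (20.6%, interval 8.70% to 37.9%) reached 0.9, and the other 27 lay between 0.2 and 0.8; the background for B-ALL INDELs on chromosomes 1 to 17 was 13.5%. The position chr19:60475138 is among the 7 under different alternative alleles, each with the same 11 of 12 reads. It is thus counted more than once, and neither allele alone is shown at 0.9. The other libraries had 101 to 184 restricted INDELs on this chromosome. These counts are not independent of depth, because a restricted INDEL needs at least 10 reads. INDELs of chromosome 19 shared by every library were covered by a median of 12 reads in B-ALL, against 16 to 20 elsewhere. How far the minimum of 10 reads lowers the B-ALL count was not tested. No B-ALL count for chromosomes 1 to 17 stands beside it.

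Sites shared with other libraries show the reads. At chr19:19635703 B-ALL had 12 of 17 alternative reads, AML 19 of 19 and M-MPAL 10 of 19. At chr19:21091828 B-ALL had 10 of 14 and AML 25 of 25. At these sites AML had no reference read while B-ALL had some. In an intron of Cfap43, a cilia protein, at chr19:47764788 B-ALL had 5 of 12 and AML 10 of 20. Of 7 SNVs of AML on chromosome 19 at a share of 0.2 to 0.8 and found in no library but AML and B-ALL, 5 had no call in B-ALL, against 182 of 544 (33.5%) on chromosomes 1 to 17; with 7 sites the interval ran from 29.0% to 96.3%.

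Protein-altering variants were counted on these chromosomes only, so no share over all chromosomes stands beside the counts. Over the 7 libraries, 25 calls on both chromosomes had at least 10 reads and were called in at most 3 libraries, and 5 of these also had a quality of at least 100 and lay outside segmental duplications. On chromosome 18 these were Pcdhb16 A678S in AML (12 of 27 reads) and Pcdhb17 D187N in AUL (13 of 23 reads), both in protocadherins, which are cell adhesion proteins, and Phax N99I in AUL (9 of 26 reads), in an adaptor of snRNA export. On chromosome 19 these were Abcc2 R1077W in T-ALL (19 of 38 reads), in an organic anion exporter, and the frameshift Rbp4 G25fs in T-MPAL (8 of 17 reads, 47.1%, exact interval 23.0% to 72.2%). All 5 had shares between 0.35 and 0.57 and each was called in 1 library. The Rbp4 deletion, whose position is shown above, is annotated in a coding exon by the deposited table and lies 182 bases before the start of the RefSeq gene model. On chromosome 19 no protein-altering call with at least 10 reads and in at most 3 libraries was found in B-ALL, AML or M-MPAL. T-MPAL and the empty control had 1 each, so the absence is not particular to B-ALL.

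Among list genes, Csf1r, the receptor of macrophage colony-stimulating factor, had splicing INDELs at chr18:61124327 in a simple repeat. They were called at 3 to 12 alternative reads in T-ALL, AML, AUL, M-MPAL and the empty control, and all had a quality below 100. Cd14, a monocyte surface receptor, had a synonymous SNV in T-ALL (7 of 40 reads). Small copy number calls included a gain to 6 copies of Malat1, a nuclear long non-coding RNA, and a gain of Ahnak, a scaffold protein, to 3 copies, both in T-ALL. In B-ALL Mex3c, an RNA-binding ubiquitin ligase, was at 3 copies over 6 kb, and in the empty control Matr3, a nuclear matrix protein, and Ankhd1 were at 3 copies over 17 and 76 kb. A stretch of 1 kb at chr18:3007001-3008000 was given at 52 to 68 copies in all 5 libraries with rows, the control included.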

How the data were processed

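Mouse genomic DNA was sequenced in 7 libraries, 1 per group, to 30x as planned (per the labels' protocols); 6 further samples of viral integration sites were not analysed here. The submitters' processing notes name BWA and build mm10. Per the file headers, the deposited SNV and INDEL tables give a Phred-scaled quality score and, in a combined cell of another kind (genotype, depth and alternative reads), the read depth and the alternative reads; no quality below 20.0 occurs. Copy number was deposited as whole copies for each called region. For caller settings: not given in the sources used here.

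Restricted variants had at least 10 reads, a quality of at least 100 and a call in at most 3 libraries, outside segmental duplications. Shares carry exact Clopper-Pearson intervals and medians carry order-statistic intervals, at 95%. One measure, the depth ratio at each site to the other libraries, was chosen after seeing the data. The functions were tested on simulated data; the first version, with fewer simulated sites, missed the set tolerance for the depth ratio of 1 intact library, and the number of sites was raised with the tolerance kept. The AML copy number table, planned for use, ends at chromosome 17 and that of AUL at chromosome 2, so that neither was used.

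The members and the gene lists were chosen with earlier results of these data known. The named genes are list genes in a copy number call or with an exonic or splicing variant in at most 3 libraries, genes with a protein-altering restricted variant (at most 6 per chromosome and library), and at most 3 genes per library in copy number calls under 5 Mb; Olfr, Vmn, Zfp, Gm and Rik genes are not named. Of the items that these rules or the data name, some are not reported here. Genes given as the place of a single SNV or INDEL were chosen after their values were seen. Alternatives changed the depth, quality, repeat, duplication, dbSNP, library and share limits, the reference chromosomes and the joining of losses. Scripts ran under Python 3.11.15 with matplotlib 3.10.9, scipy 1.17.1, pandas 2.3.3 and numpy 2.4.6.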

Additional observations from a re-analysis of the deposited data

How the results depend on the processing

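Of 59 alternative values, 40 stayed inside the interval of the value reported (for the length lost, within 1.5 times it) and 19 did not. Relative depth depends on which sites are taken. For chromosome 19 of B-ALL (0.245) it was 0.367 outside segmental duplications, 0.333 outside repeats too, 0.571 at INDELs, 0.716 as a site ratio to the empty control and 0.651 as a site ratio to the other libraries. For chromosome 18 of T-MPAL (0.812) these were 0.60, 0.50, 1.00, 1.00 and 0.973, and for chromosome 19 of T-MPAL (0.406) they were 0.633, 0.475, 0.90, 1.00 and 1.02. The share of T-MPAL SNVs at 0.9 or more moved to 37.3% (chromosome 18) and 21.8% (chromosome 19) with a quality of at least 20, and to 37.8% and 35.6% with INDELs in place of SNVs. The share of M-MPAL SNVs with no call in T-MPAL ran from 77.8% to 84.7%, and the length lost in B-ALL was 57.7 or 57.8 Mb. No paired analysis was possible because each group had 1 library. On chromosome 19 of B-ALL, SNVs at 0.9 or more went from 0 of 12 to 9 of 36 (25%). This was with variants called in up to 6 libraries and lies inside the wide interval of the value reported. No value for chromosomes 1 to 17 is given at that setting. A minimum of 20 reads left 4 SNVs and the removal of repeats 2. Few sites limit this value: B-ALL and the empty control had 12 restricted SNVs each there, at median depths of 17 and 28.5 reads. On chromosome 19 the site ratios of the libraries other than B-ALL are raised by construction, since B-ALL is in their reference.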

Other observations

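Among chromosomes 1 to 17, the highest share of restricted SNVs at 0.9 or more differed between libraries. It was 8 of 24 (33.3%) on chromosome 10 of the empty control, 28 of 101 (27.7%) on chromosome 5 of T-ALL and 9 of 35 (25.7%) on chromosome 16 of AML. It was 9 of 44 (20.5%) on chromosome 3 of B-ALL and 10 of 64 (15.6%) on chromosome 14 of T-MPAL. On chromosome 10 it was 7 of 93 (7.53%) in M-MPAL and 17 of 227 (7.49%) in AUL, the highest of each. Depth ratios of chromosome 15 also spread, from 0.73 in the empty control to 1.33 in T-MPAL at SNVs called in all libraries.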
